A study of Mus musculus with 5 samples.

Results

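The collagen chain genes were followed in 3 populations of cells sorted from dystrophic mouse muscle. Members were the probes whose gene name on the array has the form of a collagen chain symbol (Col, a type number, a, a chain number). This gave 61 probes for 41 genes, out of 36409 genes and unnamed features on the array. Of the 41 genes, 37 passed the filter on dim probes and were tested, and 34 of these were well above background on all 5 arrays. Col6a4, Col9a3, Col19a1 and Col28a1 were well above background on no array and were not tested.

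Collagens are the main structural proteins of the matrix between cells. Each chain carries long runs of a short repeat led by glycine, and chains wind around each other into a triple helix before they leave the cell. Fibrillar collagens (types I, III, V and their relatives) build the fibres that accumulate in fibrotic muscle. Type IV collagen forms the sheet of the basement membrane around each muscle fibre and vessel, and type VI collagen forms beaded filaments beside it. The other types coat fibrils, form short-chain networks, sit in basement membranes or span the cell membrane. In muscle, fibroblast-like interstitial cells are known as the main source of fibrillar collagen, and satellite cells lie against the type IV sheet.

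The cells came from C57BL/6 mice with the dystrophin mutation (genotype DMD/MDX in the labels), a model of Duchenne muscular dystrophy. All mice carried it, so no healthy muscle enters any comparison. Mice had received the histone deacetylase inhibitor TSA (trichostatin A) at 0.6 mg/Kg by intraperitoneal injection, or vehicle, over 45 days. The labels give neither the age of the animals nor how many were pooled for a sample. Both populations were sorted as CD34+ and a7-integrin+. The Sca1+ population was called muscle interstitial cells and gave 2 arrays with vehicle and 2 with TSA. The Sca1- population was called MuSC and gave 1 array, with vehicle. The first replicates and the MuSC array shared slide 1, and the second replicates shared slide 2. Whether the replicates are separate animals is not in the labels, and each p-value then reflects only how far these arrays lie apart, which can be technical. The spread of the single MuSC array was taken to equal that of the Sca1+ groups.

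On these arrays, 58.5% to 66.9% of spots were well above background, none was saturated, and replicates correlated at 0.987 with vehicle and 0.989 with TSA. Ly6a, which encodes Sca1, was lower in MuSC than in Sca1+ cells with vehicle by a log2 difference of -5.07. The genes of the shared gate were not level between the groups. Itga7, which encodes a7-integrin, stood at 1.35 and 1.09 in Sca1+ cells with vehicle, 4.53 and 4.59 with TSA and 7.02 in MuSC, so it was 55.7-fold higher in MuSC (adjusted p = 0.00145) and 10.1-fold higher with TSA (adjusted p = 0.00539). Cd34 was 9.13-fold lower in MuSC (adjusted p = 0.00221). All 10 markers of fibroadipogenic progenitors (interstitial cells that can form fibroblasts and fat) were lower in MuSC. That list includes Ly6a and Cd34, genes of the sort itself. All 11 satellite and muscle cell markers, which include Itga7 of the gate, were higher in MuSC, with Pax7 at 7.62. Genes of other cell types were higher there too: 13 of 14 pericyte and smooth muscle markers (1 of them, Des, is also on the muscle list) and 7 of 9 Schwann cell markers were above their values in Sca1+ cells with vehicle. Over all features, 10.5% were higher and 11.7% lower in MuSC.

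In 6 collagen probes the glycine codons GGN recur every 9 bases at least 3 times in a row, and these are shown because they read the repeat that defines the family. Each is the 60-base probe of the array file. Capitals mark a GGN that lies 9 bases from another in the same reading frame. Positions are in mm9.

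Col14a1, chr15:55347733-55347792, plus strand: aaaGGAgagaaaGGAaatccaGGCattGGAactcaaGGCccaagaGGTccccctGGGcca
Col15a1, chr4:47283786-47283845, plus strand: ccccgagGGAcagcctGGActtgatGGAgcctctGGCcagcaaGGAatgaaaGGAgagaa
Col16a1, chr4:129756457-129756516, plus strand: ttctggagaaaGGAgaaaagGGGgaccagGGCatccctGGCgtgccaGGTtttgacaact
Col4a4, chr1:82515563-82515622, minus strand: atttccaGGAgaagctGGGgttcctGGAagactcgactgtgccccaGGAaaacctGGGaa
Col25a1, chr3:130270497-130270556, plus strand: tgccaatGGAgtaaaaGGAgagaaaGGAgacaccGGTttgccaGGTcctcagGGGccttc
Col13a1, chr10:61330216-61330585, minus strand: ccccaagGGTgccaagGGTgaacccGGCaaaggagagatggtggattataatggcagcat

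The Col15a1 and Col25a1 probes each hold 6 such codons in an unbroken run and Col16a1 holds 5. In Col14a1 and Col4a4 the spacing is broken once, and the longest runs are 4 and 3 codons. Col13a1 holds 3. Every probe was also fitted by itself, with MuSC compared with Sca1+ cells with vehicle. The share of all probes that passed in this fit is not given here, so the number passing is not read. The log2 differences were -4.27 for Col14a1 (adjusted p = 0.00203), -3.05 for Col15a1 (adjusted p = 0.0282), -2.85 for Col16a1 (adjusted p = 0.0101) and -2.86 for Col4a4 (adjusted p = 0.0213). The Col25a1 probe (0.18, adjusted p = 0.841) and the Col13a1 probe (0.93, adjusted p = 0.433) did not pass.

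The first comparison, MuSC against Sca1+ cells, both with vehicle, asked how the collagen genes divide between the 2 populations. Most collagen genes were lower in MuSC. Of 37 tested, 22 were lower and 5 were higher (limma, Benjamini-Hochberg adjusted p under 0.05 over 26104 features). Lower were 59.5% of the members against 11.7% of all features tested, and higher 13.5% against 10.5%. The median log2 difference of the 37 genes was -1.81, beside -0.04 over all features. Adjusted p-values of the 27 genes ran from 0.00141 to 0.049. The MuSC value lay below both vehicle arrays for 26 genes, as for 44.0% of all features, and above both for 9, as for 39.3%. In cells measured in bulk, fewer cells of a type and less RNA per cell cannot be told apart.

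The second comparison, TSA against vehicle within Sca1+ cells, asked whether the treatment moved the collagen genes. No collagen gene passed the same test, while 2.98% of 26107 features did (2.71% higher, 0.268% lower). At an unadjusted p under 0.05, 6 collagen genes were higher and 11 lower, beside 10.4% and 12.7% of all features. Adjusted p-values of the members ran from 0.0639 to 0.951. The median log2 difference was -0.24, beside -0.13 over all features, and it was -0.30 on slide 1 and -0.07 on slide 2. TSA and vehicle arrays did not overlap for 12 genes that were higher with TSA, as for 22.9% of all features, and for 18 that were lower, as for 36.4%. On both slides the difference was negative for 20 genes and positive for 12.

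The 2 comparisons share the vehicle arrays, so their values are given side by side and not related to each other. All levels below are log2 processed intensity minus the 75th percentile of that array. They compare 1 gene across arrays and do not rank genes, since probes differ in brightness.

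**Figure D1:**
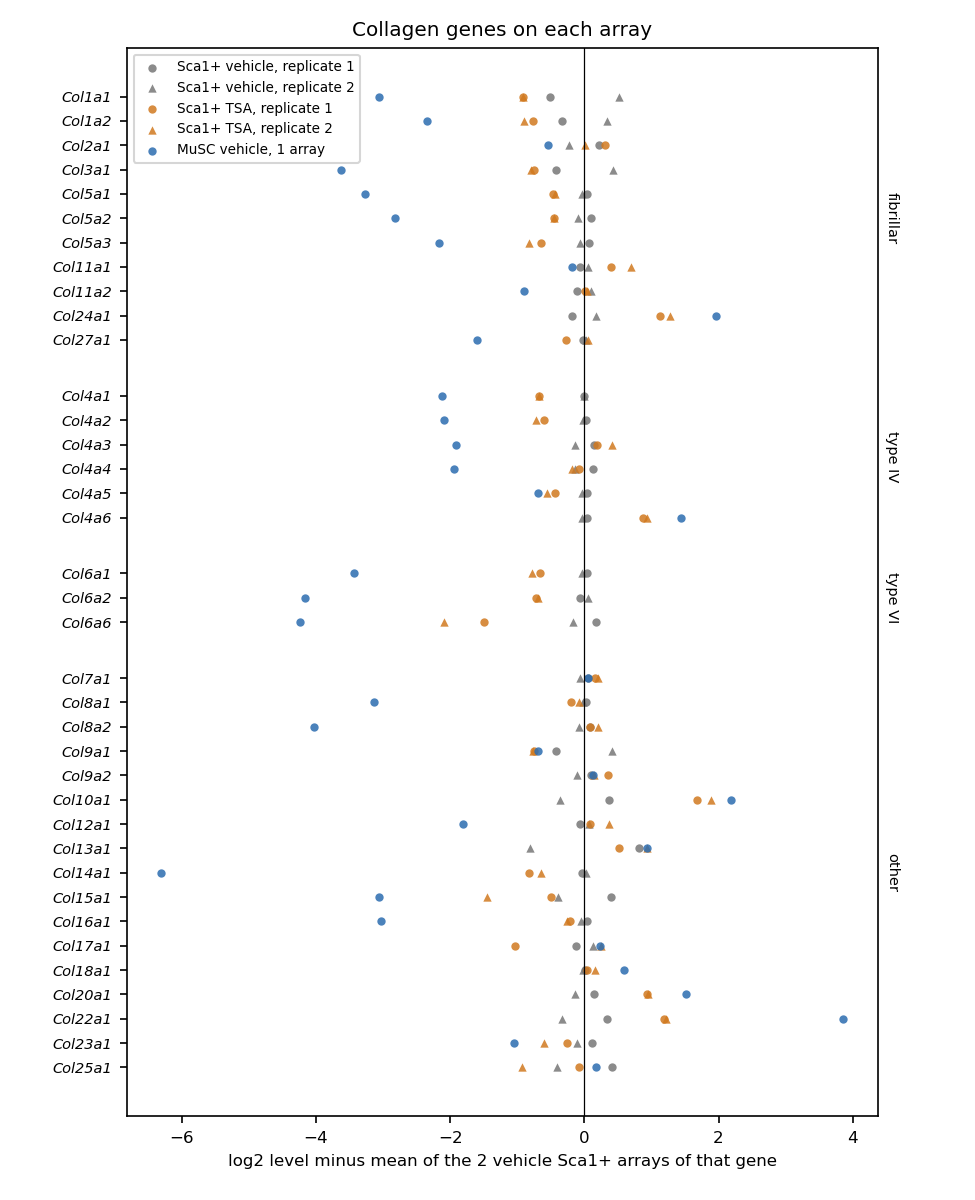
Log2 level of each tested collagen gene on each of the 5 arrays, minus the mean of that gene's 2 vehicle Sca1+ arrays (horizontal axis, log2 units), by class. Grey points are Sca1+ cells with vehicle, orange with TSA, and blue the single MuSC array; MuSC lies left of both vehicle arrays for 26 of 37 genes.

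Among the fibrillar collagens, 8 of 11 tested genes were lower in MuSC, 1 was higher and 2 did not pass the test. With TSA, 0 of the 11 passed, and their median log2 difference was -0.44. Col1a1 and Col1a2 encode the chains of type I collagen, the bulk of tendon and scar fibres. Col1a1 stood at 8.73 and 9.75 with vehicle, 8.32 and 8.33 with TSA, and 6.18 in MuSC. Its MuSC value was 8.34-fold lower (log2 -3.06 ± 0.46 SE, adjusted p = 0.0168). Col1a2 stood at 10.40 and 11.08 with vehicle, 9.97 and 9.84 with TSA, and 8.40 in MuSC, 5.07-fold lower (log2 -2.34 ± 0.34, adjusted p = 0.0148). Col3a1, the chain of type III collagen in elastic tissues and early scars, stood at 9.34 and 10.18, then 9.01 and 8.96, and 6.13 in MuSC, 12.4-fold lower (log2 -3.63 ± 0.39, adjusted p = 0.00769). For these 3 genes the second vehicle array was the highest of all 5 and the TSA arrays lay close together. Their TSA differences were therefore larger on slide 2 (-1.42 for Col1a1, -1.24 for Col1a2 and -1.23 for Col3a1) than on slide 1 (-0.42, -0.43 and -0.34 in the same order). None passed the test, with adjusted p of 0.242, 0.191 and 0.243. Their fitted TSA differences, -0.92, -0.83 and -0.78, depended on the scaling. With quantile normalization these were -0.48, 0.00 and -0.24, and with the deposited table of processed values -0.49, 0.12 and -0.22. With another background correction they were -0.70, -0.63 and -0.61 and passed, beside 27.4% of all features. With only the groups compared, the Col1a1 call against MuSC narrowly missed the threshold (log2 -3.06, limma adjusted p = 0.051). Of the arrays of this gene, only the vehicle pair (8.73 and 9.75) then entered the estimate of the spread. The closer TSA pair (8.32 and 8.33) did not.

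Type V collagen sits inside type I fibrils and limits their width, and its 3 genes were lower in MuSC with little spread between vehicle arrays. Col5a1 stood at 6.29 and 6.21 with vehicle, 5.79 and 5.81 with TSA, and 2.98 in MuSC, 9.64-fold lower (log2 -3.27 ± 0.18, adjusted p = 0.00183). Col5a2 stood at 4.42 and 4.23, then 3.88 and 3.88, and 1.51, 7.04-fold lower (log2 -2.82 ± 0.19, adjusted p = 0.00281). Col5a3 stood at 7.62 and 7.48, then 6.91 and 6.73, and 5.39, 4.47-fold lower (log2 -2.16 ± 0.20, adjusted p = 0.00534). In each of the 3, both TSA arrays lay below both vehicle arrays, with differences of -0.45, -0.44 and -0.73 and adjusted p of 0.188, 0.208 and 0.115. The other 3 fibrillar genes that passed were named after their values were seen. Col27a1, a minor fibrillar chain of cartilage, had a log2 difference of -1.60 ± 0.22 (adjusted p = 0.0141), and Col11a2 of type XI collagen had -0.90 ± 0.20 (adjusted p = 0.0422). Without the second vehicle array Col27a1 missed the threshold (adjusted p = 0.058), and without any 1 Sca1+ array Col11a2 did (adjusted p = 0.069 to 0.119). Col24a1, another minor fibrillar chain, was the exception in direction. It stood at -4.23 and -3.87 with vehicle, -2.92 and -2.77 with TSA and -2.09 in MuSC, 3.87-fold higher in MuSC (log2 1.95 ± 0.24, adjusted p = 0.0102). Its level was low on every array, and with another background correction the MuSC difference was 0.42 and did not pass (adjusted p = 0.338). Col2a1 and Col11a1 did not pass in either comparison.

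The promoter of Col1a2 is shown because this gene and Col1a1 are transcribed together in fibroblasts, and CCAAT and GC boxes (GGGCGG) are the elements for which type I promoters are known. The sequence is the 250 bases before the RefSeq start in GRCm38.p6, with CCAAT and GGGCGG in capitals.

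Col1a2, chr6:4505368-4505617, plus strand: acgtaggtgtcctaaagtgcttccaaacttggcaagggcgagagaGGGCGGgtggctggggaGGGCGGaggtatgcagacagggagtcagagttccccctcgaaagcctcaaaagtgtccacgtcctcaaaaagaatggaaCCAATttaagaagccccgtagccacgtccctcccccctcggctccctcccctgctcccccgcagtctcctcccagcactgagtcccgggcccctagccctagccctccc

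Such windows, each 250 bases before to 50 after a start, were found for 33 member genes, 36 windows in all. On either strand, CCAAT was in 13 of the 36 (36.1%) and in 37.4% of all 32851 mouse windows. GGGCGG was in 22 (61.1%) and in 35.7% of all windows, and TATAAA in 5 (13.9%) and in 13.6%. A match describes these letters and not a bound site.

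Of the type IV genes, 4 of 6 were lower in MuSC, 1 was higher and 1 did not pass. With TSA none of the 6 passed, and the median log2 difference was -0.31. Col4a1 and Col4a2 encode the chains of the common basement membrane network. Col4a1 stood at 6.49 and 6.49 with vehicle, 5.81 and 5.81 with TSA, and 4.37 in MuSC, 4.34-fold lower (log2 -2.12 ± 0.18, adjusted p = 0.00421). Col4a2 stood at 6.44 and 6.39, then 5.81 and 5.70, and 4.33, 4.25-fold lower (log2 -2.09 ± 0.18, adjusted p = 0.00472). The levels of both chains shifted by nearly the same amount from group to group. Both TSA arrays lay below both vehicle arrays, by -0.68 on each slide for Col4a1 and by -0.63 and -0.69 for Col4a2, and neither passed (adjusted p = 0.104 and 0.116).

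Col4a1 and Col4a2 are neighbours that start head to head. In GRCm38.p6 the RefSeq start of Col4a2, on the plus strand, is chromosome 8 position 11312805 and that of Col4a1, on the minus strand, is 11312826, and their windows share 78 bases. A CCAAT of the Col4a2 window, whose first base lies 32 bases before the Col4a2 start, is shown in capitals in 30 bases on the Col4a2 strand.

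Col4a2, chr8:11312763-11312792, plus strand: gaggagctccCCAATttgttggcgctgccc

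Col4a3 and Col4a4, also a neighbouring pair, encode chains of the network best known from the kidney filter. Col4a4 stood at 0.05 and -0.22 with vehicle, -0.16 and -0.27 with TSA, and -2.02 in MuSC, 3.83-fold lower (log2 -1.94 ± 0.21, adjusted p = 0.00804). Col4a3 stood at -2.97 and -3.26 with vehicle and -2.93 and -2.70 with TSA. It was not well above background in MuSC and was at least 3.76-fold lower there (adjusted p = 0.0102), a call that another background correction ended (log2 -0.48, adjusted p = 0.227). Col4a5 and Col4a6 are neighbours too, on the X chromosome. Col4a5 stood at 1.93 and 1.85, then 1.46 and 1.33, and 1.20, and did not pass (log2 -0.69 ± 0.19, adjusted p = 0.0726). The brightest Col4a6 probe went the other way, at -0.67 and -0.74 with vehicle, 0.17 and 0.23 with TSA and 0.74 in MuSC, 2.74-fold higher in MuSC (log2 1.45 ± 0.18, adjusted p = 0.0104). With TSA its difference was 0.91 ± 0.15 (adjusted p = 0.0681). The second Col4a6 probe did not follow, as described with the other probes further on.

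All 3 tested type VI genes were lower in MuSC, by more than most other collagens. Their median log2 difference was -4.16, and it was -0.72 with TSA, where none of the 3 passed. Col6a1 stood at 8.98 and 8.91 with vehicle, 8.28 and 8.16 with TSA, and 5.52 in MuSC, where it was lower (log2 -3.42 ± 0.18, adjusted p = 0.00180). Col6a2, its neighbour on chromosome 10, stood at 7.0 and 7.12, then 6.34 and 6.37, and 2.90, 17.9-fold lower (log2 -4.16 ± 0.18, adjusted p = 0.00149). These 2 chains are part of every type VI filament. Their TSA differences were -0.72 ± 0.15 and -0.70 ± 0.15 (adjusted p = 0.104 and 0.107), and on both slides the TSA array was the lower.

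Col6a6 encodes an alternative chain of type VI collagen and had the lowest TSA adjusted p of the members. It stood at 0.35 and -0.00 with vehicle, -1.32 and -1.92 with TSA, and -4.06 in MuSC. The MuSC value was 18.9-fold lower (log2 -4.24 ± 0.34, adjusted p = 0.00391). With TSA it was 3.48-fold lower (log2 -1.80 ± 0.28, adjusted p = 0.0639), by -1.67 on slide 1 and -1.92 on slide 2. The TSA call of Col6a6 depended on the processing. It passed with quantile normalization (adjusted p = 0.0491), with the deposited table of processed values (0.0467) and with the slide as a block (0.0178). It also passed with a variance trend on intensity (0.0152) and with another background correction (9.35e-05). It did not pass in the main setting, with no filter on dim probes or with the mean over probes. With only the groups compared, the TSA fit is that of the main setting. With the variance trend 9 collagen genes passed in all (2 higher, 7 lower; 6.42% of all features passed), and with the other background correction 11 (2 higher, 9 lower; 27.4% of all features).

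**Figure D2:**
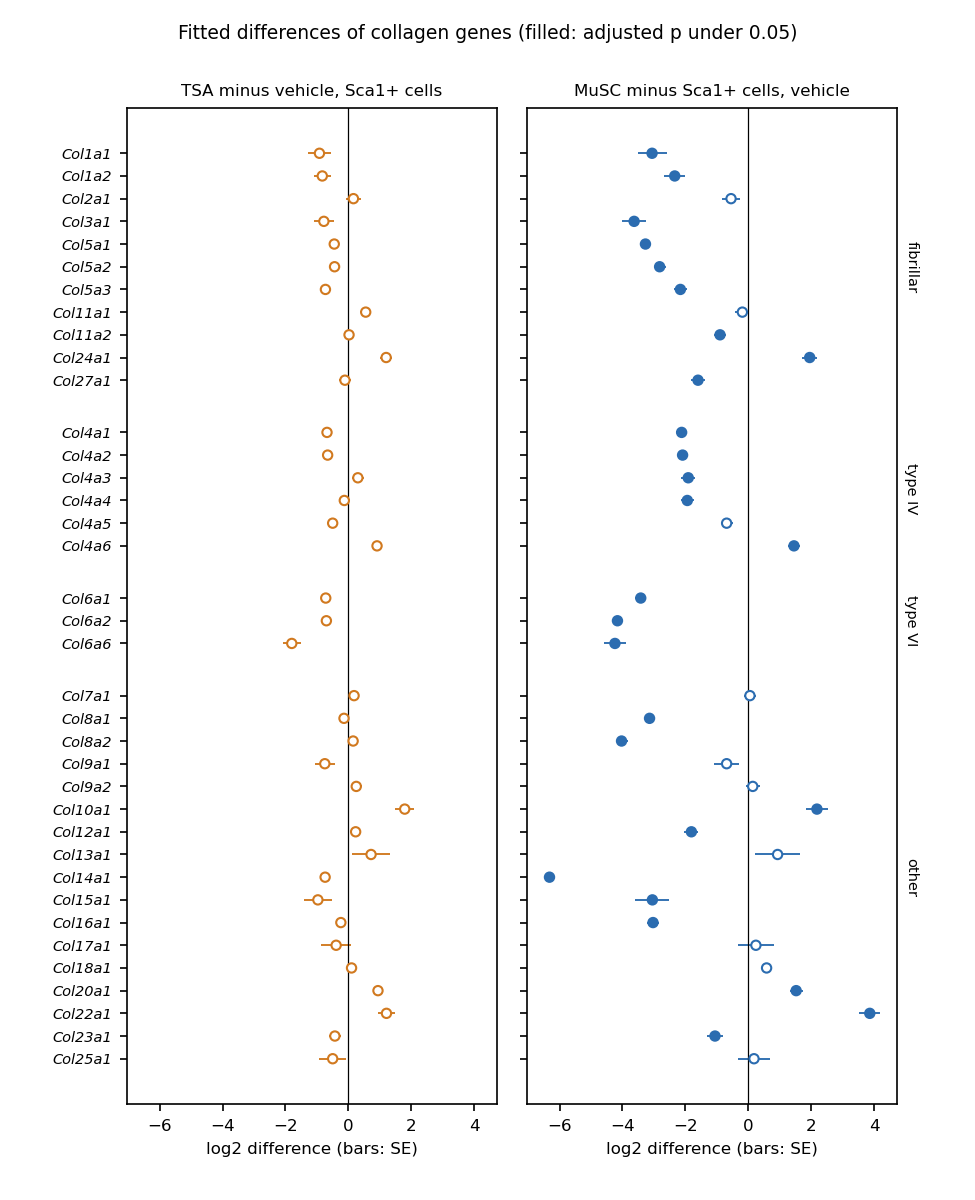
Fitted log2 difference (horizontal axis) of each tested collagen gene with its standard error, TSA minus vehicle in Sca1+ cells on the left and MuSC minus Sca1+ cells with vehicle on the right. Filled points passed an adjusted p of 0.05: 0 of 37 on the left, 27 on the right (22 lower, 5 higher).

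The remaining types held both the largest decrease and the largest increase in MuSC. Of 17 genes, 7 were lower, 3 were higher and 7 did not pass, with a median log2 difference of 0.05. With TSA the median was 0.10 and none of the 17 passed. Collagens of the fibril-associated group lie on the surface of fibrils, and Col14a1 of that group had the largest difference of all members. It stood at 6.60 and 6.66 with vehicle, 5.81 and 5.99 with TSA, and 0.32 in MuSC, 79.7-fold lower (log2 -6.32 ± 0.19, adjusted p = 0.00141). Its TSA difference was -0.74 ± 0.16 (adjusted p = 0.107). Col16a1, of the same group, stood at 6.90 and 6.81, then 6.64 and 6.60, and 3.82, 8.19-fold lower (log2 -3.03 ± 0.18, adjusted p = 0.00214). Col22a1, known from the junction of muscle and tendon, was the reverse. It stood at -0.46 and -1.14 with vehicle, 0.39 and 0.42 with TSA, and 3.06 in MuSC, 14.5-fold higher (log2 3.86 ± 0.33, adjusted p = 0.00464). With TSA, Col22a1 was higher by 0.85 on slide 1 and 1.56 on slide 2 (log2 1.21 ± 0.27, adjusted p = 0.117).

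Type VIII collagen forms hexagonal networks under endothelium, and both of its chains were lower in MuSC. Col8a2 stood at 3.18 and 3.02 with vehicle, 3.19 and 3.31 with TSA, and -0.93 in MuSC, 16.3-fold lower (log2 -4.03 ± 0.19, adjusted p = 0.00156). Col8a1 stood at 4.27 and 4.22, then 4.04 and 4.17, and 1.11, 8.80-fold lower (log2 -3.14 ± 0.18, adjusted p = 0.00210). Their TSA differences, 0.15 and -0.14, did not pass (adjusted p = 0.598 and 0.600). Col15a1 and Col18a1 encode basement membrane collagens whose ends yield fragments that act on vessels. Col15a1 stood at 2.06 and 1.27, then 1.17 and 0.22, and -1.39, 8.30-fold lower in MuSC (log2 -3.05 ± 0.54, adjusted p = 0.0253). Its replicates were further apart than those of most members, and without the first vehicle array it missed the threshold (adjusted p = 0.0662). Col18a1 stood at 5.11 and 5.08, then 5.13 and 5.26, and 5.68, and passed in neither comparison (MuSC log2 0.58 ± 0.18, adjusted p = 0.102).

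The other 4 genes of the remaining types that passed in MuSC were named after their values were seen. Col12a1, a fibril-associated chain, was lower (log2 -1.81 ± 0.22, adjusted p = 0.00982), and so was Col23a1, which spans the membrane (log2 -1.06 ± 0.25, adjusted p = 0.0490). Leaving out any 1 Sca1+ array ended the Col23a1 call (adjusted p = 0.0844 to 0.121). Col20a1 was higher (log2 1.52 ± 0.21, adjusted p = 0.0136). Col10a1, known from growing cartilage, was not well above background with vehicle and was at least 3.24-fold higher in MuSC (adjusted p = 0.0215) and at least 2.47-fold higher with TSA (adjusted p = 0.0708). With only the groups compared its MuSC adjusted p was 0.0584, and another background correction left a difference of 0.02. The second Col10a1 probe was well above background on no array. Col20a1 stood at -2.17 and -2.45 with vehicle, -1.37 and -1.36 with TSA and -0.79 in MuSC. The 5 genes higher in MuSC were thus Col4a6, Col10a1, Col20a1, Col22a1 and Col24a1, which encode a type IV chain, a short-chain network chain, a pair of fibril-associated chains and a minor fibrillar chain.

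Some genes were read by several probes. Of 14 such genes, 11 had at least 2 tested probes, and in 9 of these the MuSC differences had 1 sign. Among the 9 is Col4a4, where 1 probe (-0.86) was well above background in neither group of that comparison. The 3 probes of Col16a1 ran from -3.09 to -2.85 and the 3 of Col15a1 from -3.40 to -3.05. The Col14a1 probe at chr15:55352264-55352323 gave -6.32, and the probe whose repeat is printed above gave -4.27. The 2 probes of Col8a2 gave -4.03 and -2.48. Col4a6 was split: the brighter probe, chrX:137599990-137600049, gave 1.45 and the other, chrX:137601433-137601491, gave -0.31 (adjusted p = 0.517). With the mean of both, Col4a6 no longer passed (log2 0.57, adjusted p = 0.132). Col9a1 was split too: the brighter probe, chr1:24201545-24201604, gave -0.69 (adjusted p = 0.299), and the other, chr1:24259125-24259184, was well above background in MuSC and on 1 TSA array but on neither array with vehicle. Its MuSC level was higher by at least 4.12-fold. That probe passed the filter only through the MuSC array, where it was high, so its p-value is not read. Which transcript each probe reads was not analysed here.

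**Figure D3:**
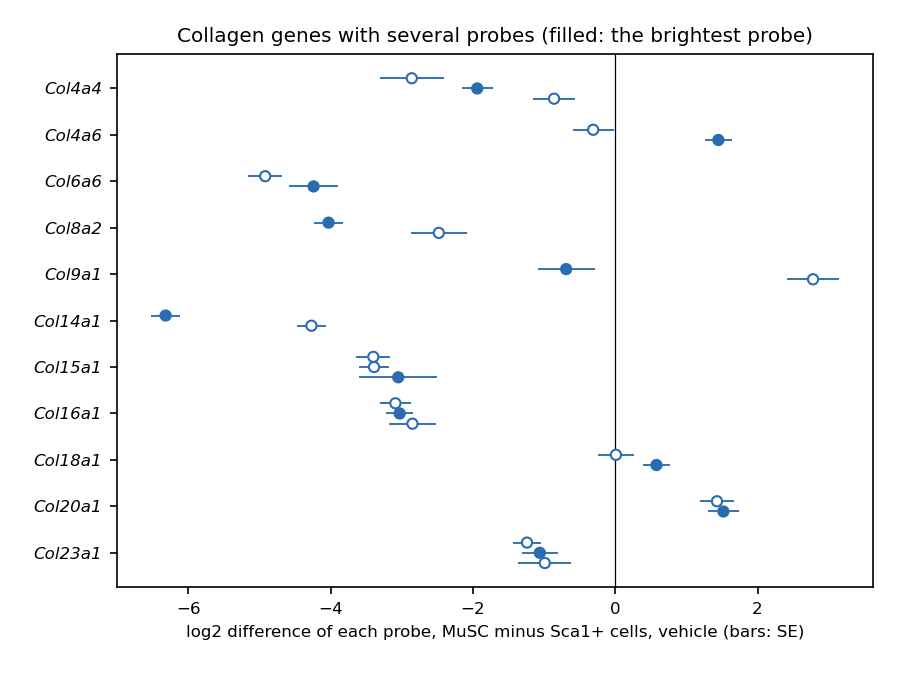
Log2 difference of MuSC against Sca1+ cells with vehicle (horizontal axis, bars are SE) for each tested probe of the 11 collagen genes with several tested probes. Filled points are the brightest probe, which stands for the gene elsewhere. Col4a6 and Col9a1 have probes on both sides of 0. The open points of Col9a1 and Col6a6 are fitted values where 1 group was not well above background. The open point of Col4a4 at -0.86 is a fitted value where neither group was.

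Collagen chains are hydroxylated and glycosylated in the endoplasmic reticulum, folded by chaperones, trimmed outside the cell and crosslinked into fibres. Of 41 tested genes for these steps and for collagen receptors, 31 were lower in MuSC and 3 were higher, beside 11.7% and 10.5% of all features, with a median log2 difference of -1.61. None passed with TSA, where the median was -0.37. At an unadjusted p under 0.05, 15 were lower and 2 higher with TSA, beside 12.7% and 10.4% of all features.

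For modification and folding, 16 of 19 were lower in MuSC. Colgalt2, which adds galactose to hydroxylysine, fell by 3.67 on the log2 scale (SE 0.22, adjusted p = 0.00209). P4ha2, a subunit of the prolyl hydroxylase that stabilises the helix, had a difference of -2.72, P3h3 of -2.62 and the isomerase gene Fkbp14 of -2.40. For propeptide processing, 5 of 7 were lower. Pcolce2 and Pcolce, enhancers of the C-proteinase, had differences of -4.58 ± 0.19 and -3.26 ± 0.18, and the N-proteinase gene Adamts2 had -3.78 ± 0.22. Bmp1, the C-proteinase itself, had -1.96. Pcolce2 stood at 4.43 and 4.25 with vehicle, 3.27 and 3.36 with TSA and -0.24 in MuSC, and its TSA difference of -1.03 did not pass (adjusted p = 0.0639).

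All 5 crosslinking genes were lower in MuSC, with Lox at -3.59, Loxl2 at -3.32, Loxl4 at -3.24 and Loxl1 at -2.73. Lox stood at 2.03 and 1.84 with vehicle, 2.02 and 1.95 with TSA and -1.65 in MuSC. Among 10 receptor genes, 5 were lower and 2 were higher in MuSC. Itga11, whose integrin binds fibrillar collagen, stood at 5.59 and 5.43 with vehicle, 4.58 and 4.77 with TSA and 0.68 in MuSC, 28.4-fold lower (log2 -4.83 ± 0.20, adjusted p = 0.00149). The collagen uptake receptor Mrc2 had -3.32 and the leukocyte receptor Lair1 -3.17. Ddr1, a collagen-activated tyrosine kinase, was 4.87-fold higher in MuSC (log2 2.28 ± 0.22, adjusted p = 0.00558). The other two higher genes, named after their values were seen, were Itga10 (0.84, adjusted p = 0.0445) and P3h2 (1.25, adjusted p = 0.0235).

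**Figure D4:**
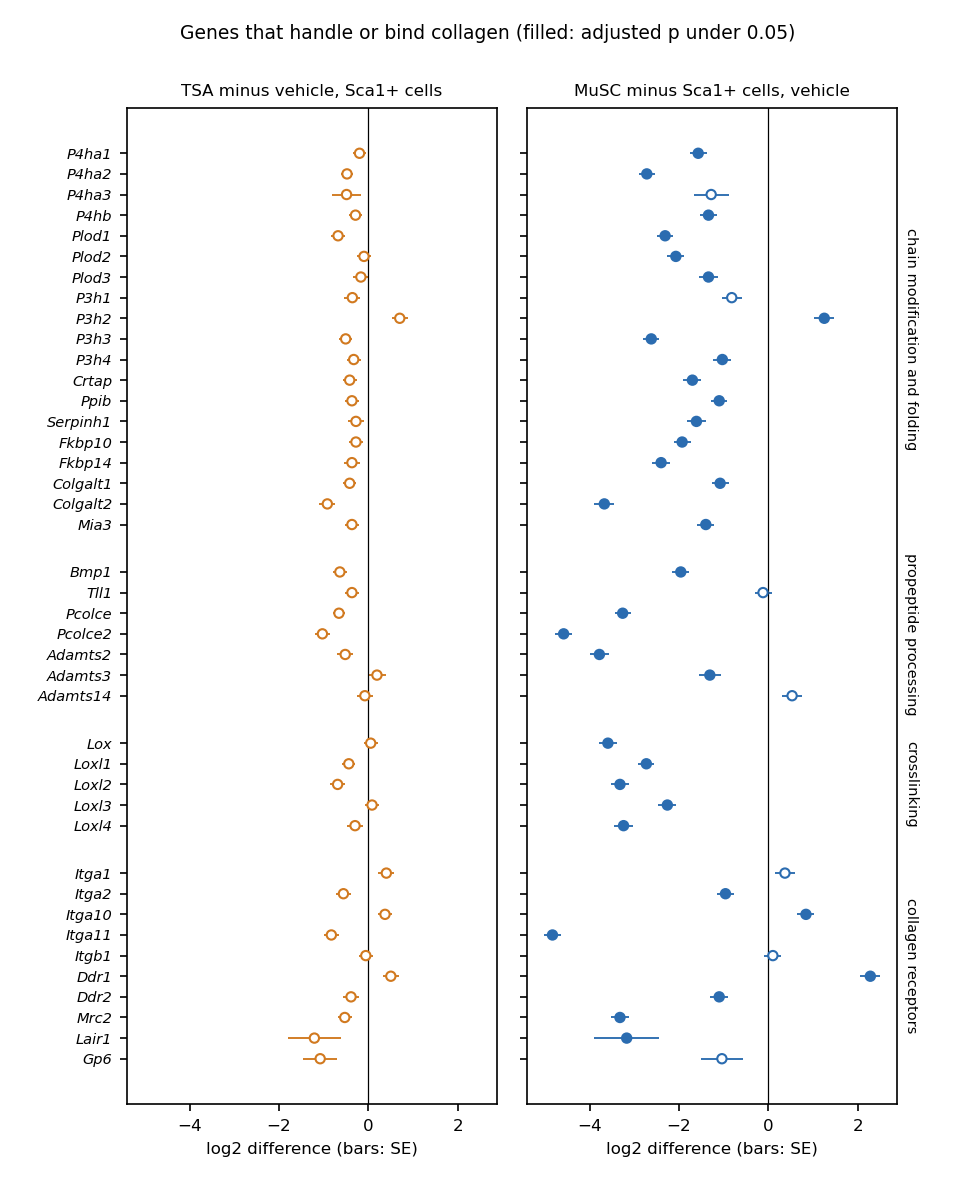
Fitted log2 differences (horizontal axis, bars are SE) of 41 genes that modify, process, crosslink or bind collagen, for TSA minus vehicle (left) and MuSC minus Sca1+ cells with vehicle (right). Filled points passed an adjusted p of 0.05: none on the left, 31 lower and 3 higher on the right.

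Markers of other cells moved between the same groups. Over all features, 2.71% were higher and 0.268% lower with TSA, and 10.5% were higher and 11.7% lower in MuSC. The summed levels below are set mostly by the brightest probes of a list. In the mast cell list, Tpsb2 alone stood at 0.22 and 0.62 with vehicle and 0.10 in MuSC. The summed level of the 10 fibroadipogenic markers was 11.72 and 12.20 with vehicle, 10.74 and 11.01 with TSA and 8.30 in MuSC (log2 scale), and 1 of the 10, Pi16, fell with TSA. For the 11 muscle markers it was 1.77 and 1.57, then 5.26 and 5.34, and 8.30, and 9 rose with TSA. On the vehicle arrays 9 and 7 of these 11 were well above background, and Myf5 and Calcr were so on neither. For the 14 pericyte and smooth muscle markers the sum was 6.32 and 6.43, then 9.33 and 9.22, and 10.72, and 10 rose with TSA. Lmod1 and Myocd were well above background on neither vehicle array. For the 6 mast cell markers it was 0.87 and 1.12, then 5.02 and 4.90, and 0.34, and 5 rose with TSA. Cma1 and Fcer1a were well above background on neither vehicle array. Of 9 Schwann cell markers, 5 rose with TSA, with a sum of 1.96 and 1.93, then 4.20 and 4.33, and 5.90. Of 10 endothelial markers, 1 rose with TSA, and 7 were lower and 1 higher in MuSC. Of 8 tendon and cartilage markers and of 7 macrophage markers, 0 passed with TSA. In MuSC 4 tendon and cartilage markers were lower and 1 was higher, and 1 macrophage marker was higher. The part of these cells in the collagen values was not tested.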

How the data were processed

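Per the file headers, the deposited spot intensities were extracted from 5 arrays of 1 colour with Agilent Feature Extraction 10.7.3.1 (mm9), background-subtracted and detrended within each array, with no scaling between arrays. The deposited flags and other columns mark spots well above background, saturated or outlying. The authors' deposited value table fits log2 of the same signal (rank correlation at least 0.9999, median 4.67 in each column). A shared median does not settle how it was normalized, and the tool is not given in the sources used here. Its log2 scale and direction match the scanner values, and how it was centred stays unknown.

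Values were log2 processed intensity minus each array's 75th percentile (165 to 452). Control and outlier spots were left out, spots of a probe averaged, and the probe with the highest mean taken for a gene. RefSeq accessions named 26413 of 55681 probes, including 58 of the 61 collagen probes. A feature was kept if all arrays of any 1 group called it well above background, and 26107 entered the fit by lmFit and eBayes (limma 3.58.1, R 4.3.3, two-sided) over all 5 arrays in 3 groups, with 2 residual and 2.30 prior degrees of freedom. Errors are the model's standard errors. Where a group was not well above background, the fold is a lower bound: the brighter group's mean against the dimmer group's mean of, per array, the probe's value or, if that is higher, the dimmest value well above background. The fit was tested on simulated data.

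Members, gene lists and classes were chosen with earlier results of these data known. Full values were given for genes past the threshold, up to 6 of each class by size, for 10 chains set by name (1 more chain was not analysed here), and for at most 4 genes of each other list. Alternatives were normexp (offset 50, on median signals, since the mean signal is not in every file), quantile normalization, the deposited table, no filter, the mean over probes, the slide as a block, an intensity trend, only the groups compared, and leaving out each Sca1+ array.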

Additional observations from a re-analysis of the deposited data

How the results depend on the processing

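The MuSC counts of collagen genes stayed between 23 and 29 under the 12 alternatives, against 27, and 18 of the 27 genes passed under each. Those that did not are Col1a1, Col4a3, Col4a6, Col10a1, Col11a2, Col15a1, Col23a1, Col24a1 and Col27a1. Col10a1, Col11a2, Col1a1 and Col23a1 were lost with only the groups compared, and Col10a1, Col11a2, Col15a1 and Col23a1 with no filter. With an intensity trend Col18a1 and Col4a5 passed too. The share of all features that passed in MuSC moved as well, from 22.2% in the main setting. It was 9.28% with no filter and 13.1% with only the groups compared, where 23 collagen genes passed each time. It was 27.5% with the trend, where 29 passed. The median MuSC difference was -1.81. It was -1.15 with normexp, -1.75 with quantile normalization, -1.74 with the deposited table, -1.10 with no filter and -1.70 with the slide as a block, and -1.81 to -1.74 without single arrays. The counts of collagen-handling genes in MuSC lay between 24 and 34 with no array left out, against 34 in the main setting. It was 24 with no filter, where 9.28% of all features passed, and 34 with the trend, where 27.5% did. With no array left out, the TSA counts were 0 except with normexp and with the trend. Normexp gave 7 lower, while 5899 of 26107 features were lower. The trend gave 7 lower, while 475 of 26107 features were lower.

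For TSA the count of 0 became 11 with normexp (2 higher and 9 lower, beside 27.4% of all features). It became 9 with an intensity trend (2 higher and 7 lower, beside 6.42% of all features). The deposited table gave 2 (Col10a1 1.90, Col6a6 -1.74), beside 3.61% of all features. Quantile normalization gave 1 (Col6a6), beside 3.50%, and the slide as a block gave 2, beside 4.21%. The count stayed 0 with no filter, where only 0.777% of all features passed. It also stayed 0 with the mean over probes (2.94% of all features). With only the groups compared, the TSA fit is the main fit again, since the single MuSC array adds nothing to the spread. Fits without single arrays leave 1 array in a group, and their counts are not read here. In them the TSA median of the collagen genes ran from -0.26 to -0.13. Normexp moved the TSA median of all features from -0.13 to -0.25. The causes were not tested.

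Replicate numbers follow the slide. Same-numbered samples deviated together with a correlation of 0.347, which 2 pairs are too few to settle as pairing. The replicate block gave 2 TSA calls, Col24a1 (1.20, limma adjusted p = 0.0431) and Col6a6 (-1.80, limma adjusted p = 0.0178), beside 4.21% of all features. It gave 26 MuSC calls, without Col11a2, beside 23.5% of all features.

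Signs changed in genes that did not pass. For TSA with normexp these were Col10a1 (-0.41), Col11a2 (-0.26), Col13a1 (-0.48), Col24a1 (-0.17), Col2a1 (-0.16), Col4a3 (-0.21) and Col8a1 (0.02). With the deposited table they were Col16a1 (0.01) and Col1a2 (0.12, and 0.00 with quantile normalization), and with the mean over probes Col18a1 (-0.03) and Col8a2 (-0.05). Without the first vehicle array Col11a2 (-0.09) and Col4a4 (0.01) turned. Over the fits without single arrays Col13a1 ran from -0.09 to 1.53, Col2a1 from -0.07 to 0.38, Col17a1 from -1.03 to 0.25 and Col27a1 from -0.27 to 0.06. For MuSC, Col13a1 (-0.11), Col17a1 (-0.03) and Col25a1 (-0.11) turned with normexp, Col25a1 (-0.19) and Col9a1 (1.04) with the mean over probes, Col25a1 (-0.23) with the block, and without single arrays Col25a1 ran from -0.22 to 0.58 and Col7a1 from -0.01 to 0.11. Signal near background limits Col10a1, Col13a1, Col24a1 and the untested genes.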

Other observations

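A pair of collagen chain genes carries other names on the array (Gm7455 and Emid2) and so lay outside the members. Their accessions give Col6a5 and Col26a1, and they were looked at after the values of the members were seen. Col6a5, an alternative chain of type VI collagen that lies between Col6a6 and Col6a4 in the genome, stood at -0.36 and -0.59 with vehicle, -1.54 and -1.28 with TSA, and was not well above background in MuSC. It was at least 28.7-fold lower in MuSC (limma adjusted p = 0.00149), and its TSA difference was -0.93 ± 0.18 (adjusted p = 0.0953).

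Col26a1 was the only collagen chain gene of those looked at here that passed the TSA test. It stood at -3.00 and -3.04 with vehicle and -1.0 and -1.10 with TSA, a log2 difference of 1.97 ± 0.15 (limma adjusted p = 0.012), with 1.99 on slide 1 and 1.94 on slide 2. In MuSC it stood at 2.65, higher than in Sca1+ cells with vehicle by 5.66 ± 0.18 (adjusted p = 0.00141), and this was the largest increase among these chains. The summed markers of muscle, pericyte and smooth muscle, and Schwann cells were higher in the same groups, and their part in the Col26a1 values was not tested.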
